A study of Rattus norvegicus with 18 samples.

Results

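Asns, Atf4, Ddit3, Trib3, Sesn2, Psat1, Phgdh, Slc7a5, Slc3a2 and Slc38a2 are 10 genes of the amino acid response and of amino acid uptake, and their transcripts were followed in rat blood cells under 3 diets. The genes were found by the gene name printed for each array probe, without regard to case or to a "predicted" suffix. By name 9 of the 10 were found, with 10 probes. Sesn2 has no probe under its own name and was found through an older symbol of the same RefSeq gene, RGD1566319, with 1 probe. The members thus held 11 of the 41012 probes and 10 of the 35632 distinct names of the array, where a probe without a RefSeq match counts under its printed name. Of the members, 9 genes with 10 probes passed the filter on dim probes, and Psat1 did not.

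The samples were peripheral blood mononuclear cells (PBMC, lymphocytes and monocytes separated from blood on a Ficoll gradient), taken from 18 male rats of the Wistar strain, 6 per diet. The high-protein diet (HPD) gave 45% of its energy as protein, mainly casein, 45% as carbohydrate and 10% as fat. The high-fat diet (HFD) gave 20% as protein, 20% as carbohydrate and 60% as fat, and the low-fat control diet (LFD) gave 20% as protein, 70% as carbohydrate and 10% as fat. HPD and HFD were given in amounts that matched the energy LFD rats had eaten freely. Feeding began at 2 months of age and lasted 4 months, and food was withheld for the last 14 h, so no rat was sampled fed. On each 2-colour array the RNA of 1 rat, in Cy5, competed with an equimolar pool of the samples in Cy3. A value is therefore the log2 ratio of 1 rat to the pool. For 1 array the title names HFD replicate 7 and the source name names HPD, and it was counted as HPD.

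Cells that lack amino acids accumulate uncharged transfer RNA, which activates the kinase Gcn2. The kinase phosphorylates the initiation factor eIF2, which slows protein synthesis in general while raising translation of the transcription factor Atf4. Atf4 then induces genes for amino acid synthesis and uptake and for stress adaptation, and lymphocytes use the same uptake systems when they are activated. Much of the control of Atf4 is on its translation, which a transcript array does not measure.

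Atf4 commonly acts through composite elements whose core reads TGATGNAA. In the 250 bases before the annotated start of each gene (RefSeq, GRCr8), all 10 members had a window, with 11 windows in all because Slc3a2 has 2 annotated starts. The core was searched on both strands and found in 1 of the 11 windows, that of Trib3, against 3.4% of all 33469 windows of this length. A pair of narrower forms, each contained in that core on both strands, was also searched: TTGCATCA was in no member window and in 0.693% of all windows, and a 9-letter form with A or G before the core and G or T at its free place was in no member window and in 0.78% of all. The window of Trib3 is shown because it alone held the core, and that of Asns because Asns is the textbook target of Atf4. The Trib3 window is chr3:161275534-161275783 and the Asns window is chr4:36769416-36769665, both on the minus strand, printed in the direction of transcription. Capitals mark the core, which reads on the opposite strand 21 to 14 bases before the start of Trib3.
Trib3: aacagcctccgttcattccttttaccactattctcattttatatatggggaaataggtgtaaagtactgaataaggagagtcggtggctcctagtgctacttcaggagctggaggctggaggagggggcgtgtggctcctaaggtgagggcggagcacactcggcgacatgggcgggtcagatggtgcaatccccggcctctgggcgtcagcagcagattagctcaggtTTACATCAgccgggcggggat
Asns: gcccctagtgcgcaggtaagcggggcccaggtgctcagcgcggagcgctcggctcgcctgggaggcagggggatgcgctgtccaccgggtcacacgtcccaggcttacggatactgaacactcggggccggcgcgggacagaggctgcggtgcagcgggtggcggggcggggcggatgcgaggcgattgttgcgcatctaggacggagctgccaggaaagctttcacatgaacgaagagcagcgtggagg
A match of letters is no evidence of a bound site, and a window without a match says only that these letters are not in it.

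Spots had median Cy5 signals of 58.9 to 79.5 intensity units per array over local backgrounds of 31 to 37, and an array had 53.1 to 63.4% of its probes well above background. Throughout the 18 arrays the 10 probes of the 9 measured members exceeded background clearly by the scanner's flag, with none saturated. All 8 T cell markers were well above background on every array. So were all the B cell (4), natural killer cell (5) and monocyte (5) markers found on the array, of 6 listed for each. These fit the label PBMC. The same held for all erythroid (6 of 8 listed), platelet (5 of 6) and plasma cell (4 of 6) markers found on the array. Of 5 neutrophil markers found on the array, 3 passed the filter on dim probes and 2 were well above background on every array. The mean log2 ratio of the 6 erythroid markers ranged over -1.57 to -0.16 in HPD rats, -1.50 to 0.84 in HFD rats and -1.20 to 1.08 in LFD rats. That of the 5 monocyte markers ranged over -1.52 to 0.43 in HPD, -0.65 to 1.02 in HFD and -0.66 to 0.23 in LFD rats. The part of cell composition in the values below was not tested, and in such mixtures fewer cells of a type and less RNA per cell cannot be told apart.

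No member differed between diets beyond the spread between rats. In limma's moderated test, with Benjamini-Hochberg adjustment over the 25205 probes kept, 0% of all probes passed an adjusted p of 0.05 in HPD vs LFD, HFD vs LFD or HPD vs HFD, and 0 of the 9 measured members did. At an unadjusted p under 0.05, 2.84% of all probes stood in HPD vs LFD (716 probes), 2.01% in HFD vs LFD (506) and 3.02% in HPD vs HFD (761), again with 0 members in each. The ranges of the diets overlapped for every member in every comparison; of all probes, 0.0793% had ranges that did not overlap in HPD vs LFD, 0.0833% in HFD vs LFD, 0.242% in HPD vs HFD and 0.0119% in HPD vs the mean of LFD and HFD. What the data give is therefore the level of each transcript in each rat and how large a difference the 6 rats per diet leave possible.

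**Figure D1:**
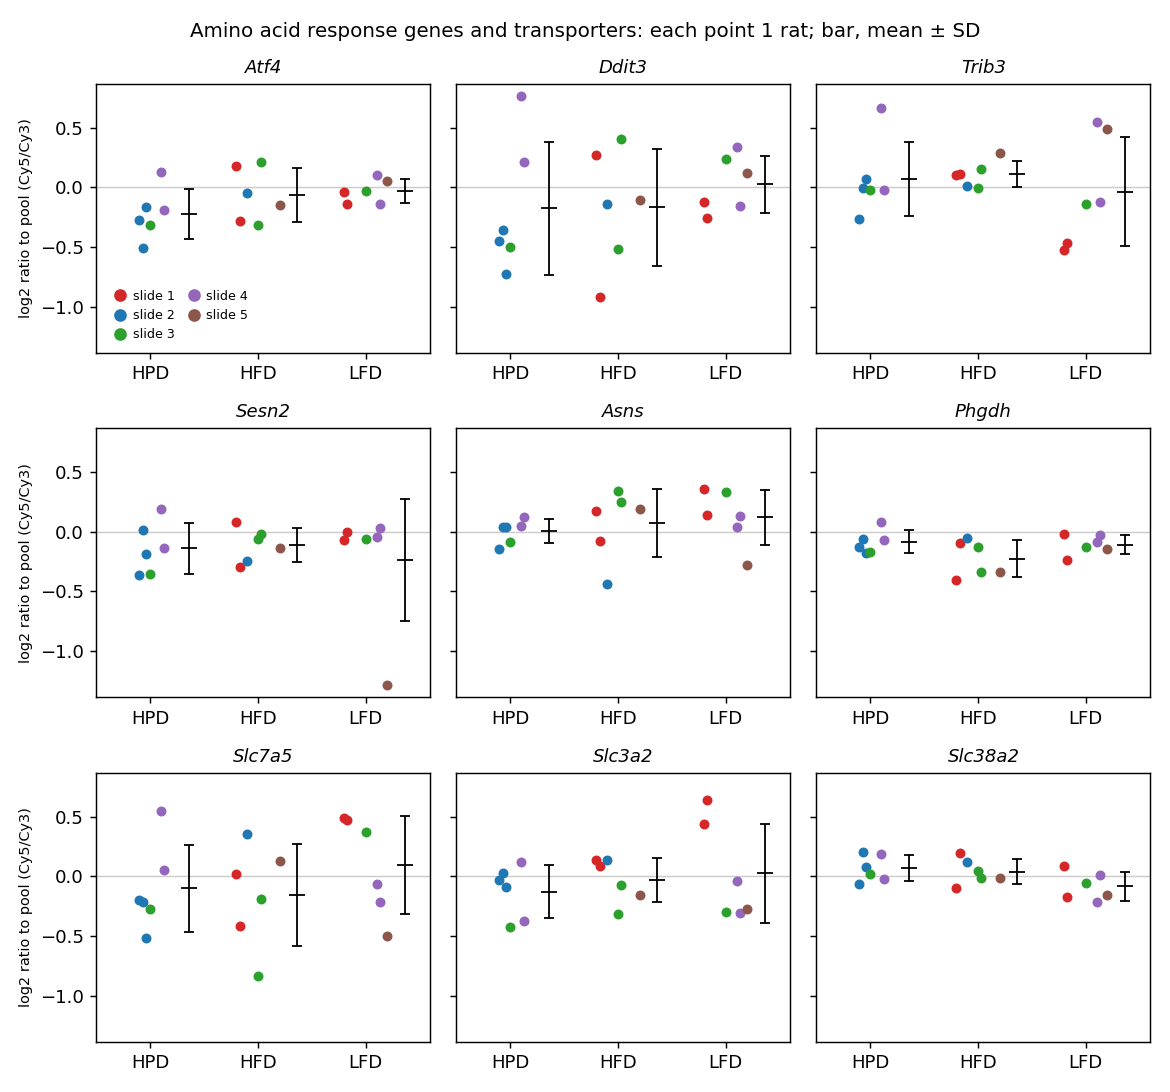
Log2 ratio of each measured member to the Cy3 pool (y axis) in HPD, HFD and LFD rats, 1 point per rat coloured by slide, with the mean and SD of the 6 rats beside the points. The 3 diets overlap in every panel, and 1 LFD rat lies at -1.28 for Sesn2.

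Atf4, the transcription factor at the centre of the response, was measured by a probe at chr7:118538840-118538899 (rn4, plus strand). In HPD rats its log2 ratio ran from a lowest -0.51 over a median -0.23 to a highest 0.13, in HFD rats over -0.32, -0.099 and 0.21, and in LFD rats over -0.14, -0.037 and 0.11. In 5 of the 6 HPD rats Atf4 lay below the LFD mean, but the highest HPD rat exceeded every LFD rat. The mean was -0.22 ± 0.21 in HPD and -0.032 ± 0.099 in LFD rats (SD, n = 6 each). The HPD vs LFD difference of -0.19 ± 0.12 (SE) is a ratio of 0.88 with a 95% interval of 0.74 to 1.05 (limma, unadjusted p = 0.135, adjusted p = 1). Of all probes, 8.9% had a lower p in that comparison. HFD vs LFD differed by -0.036 ± 0.12 and HPD vs HFD by -0.15 ± 0.12 (limma adjusted p = 1 and 0.995). Where HPD and LFD rats shared a slide, Atf4 differed by -0.28 on slide 3 (1 rat each) and by -0.015 on slide 4 (2 rats each). Across the 18 arrays Atf4 correlated at r = 0.64 with the mean of the monocyte markers and at 0.57 with that of the platelet markers. It correlated at -0.52 with the T cell mean and at 0.13 to 0.41 with the other marker means. The monocyte group mean was also lowest in HPD rats, at -0.61 against 0.12 in HFD and -0.21 in LFD rats. The platelet mean was -0.50, -0.24 and 0.031 and the T cell mean -0.037, -0.13 and -0.049, in the same order of diets. The part of these cells in the Atf4 values was not tested.

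Ddit3, also called Chop, is a stress-induced transcription factor downstream of Atf4, and Trib3 is a pseudokinase that both factors induce and that holds back Atf4 activity. Ddit3 (chr7:67251675-67252036, rn4, plus strand) had lowest, median and highest log2 ratios of -0.73, -0.40 and 0.77 in HPD rats, -0.92, -0.12 and 0.41 in HFD rats and -0.25, -0.001 and 0.34 in LFD rats. Its HPD range enclosed the LFD range, with 4 of 6 HPD rats below and 1 above every LFD rat. The mean was -0.18 ± 0.56 in HPD, -0.17 ± 0.49 in HFD and 0.027 ± 0.24 in LFD rats (SD, n = 6 each). With 95% intervals of -0.73 to 0.32 for HPD vs LFD and -0.72 to 0.33 for HFD vs LFD, Ddit3 was the member whose differences were least well bounded (limma adjusted p = 1 in both).

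Trib3 (chr3:142664064-142664123, rn4, minus strand) had lowest, median and highest log2 ratios of -0.26, -0.012 and 0.66 in HPD rats, -0.003, 0.11 and 0.29 in HFD rats and -0.52, -0.13 and 0.55 in LFD rats. The 6 HFD rats lay close together, inside the range of the LFD rats, and all 6 were above the LFD mean. The LFD rats divided into 2 near 0.5 and 4 below -0.1, and the lowest 2 of these were on slide 1. HFD vs LFD differed by 0.15 ± 0.19 and HPD vs LFD by 0.11 ± 0.19 (SE, limma adjusted p = 1 in both). Their direction was not stable. Without the 4 arrays of slide 1 they were -0.081 and -0.12, and without HPD replicate 2 the HPD vs LFD difference was -0.012. With slide as a further term they were 0.28 and 0.15, and HPD vs LFD was 0.11 within slide 3 and within slide 4.

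Sesn2, sestrin 2, is a leucine sensor that restrains the kinase mTORC1 and is itself induced by Atf4. Its probe lies at chr5:152655891-152655950 on the plus strand of the design (rn4), while RefSeq (GRCr8) places the gene on the minus strand. Within 2 Mb of it, 25 of 44 probes of named genes had the same strand in the design and in RefSeq (56.8%). Of all such probes, 94.9% did. The cause of the difference was not tested, and the strand the probe reads was not settled. Its log2 ratio ran over -0.36, -0.16 and 0.19 in HPD rats, -0.30, -0.099 and 0.080 in HFD rats and -1.28, -0.051 and 0.033 in LFD rats (lowest, median and highest). LFD replicate 6 stood far below the other 5 LFD rats, which lay between -0.071 and 0.033. The HPD vs LFD difference was 0.10 ± 0.19 and the HFD vs LFD difference 0.12 ± 0.19 (SE, limma adjusted p = 1 in both). Without LFD replicate 6 they were -0.11 and -0.084, so that 1 rat set the direction of both.

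Asns, asparagine synthetase, makes asparagine from aspartate and glutamine. Its probe (chr4:32759136-32759195, rn4, minus strand) gave lowest, median and highest log2 ratios of -0.15, 0.042 and 0.13 in HPD rats, -0.44, 0.18 and 0.34 in HFD rats and -0.28, 0.14 and 0.36 in LFD rats. The HPD rats formed the tightest group and lay within the ranges of the other diets. Asns averaged 0.005 ± 0.10 in HPD, 0.074 ± 0.29 in HFD and 0.12 ± 0.23 in LFD rats (SD, n = 6 each). The HPD vs LFD difference of -0.12 ± 0.14 (SE) is a ratio of 0.92 with a 95% interval of 0.76 to 1.13, and HFD vs LFD gave 0.97 with 0.79 to 1.18 (limma adjusted p = 1 in both). With slide as a further term the HPD vs LFD difference was -0.010 ± 0.16.

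Phgdh and Psat1 catalyse consecutive steps of serine synthesis from a glycolytic intermediate. Phgdh (chr2:193147951-193148010, rn4, minus strand) had lowest, median and highest log2 ratios of -0.17, -0.098 and 0.085 in HPD rats, -0.41, -0.23 and -0.049 in HFD rats and -0.23, -0.11 and -0.017 in LFD rats. All 6 HPD rats lay above the HFD mean, yet the 2 ranges overlapped. Phgdh averaged -0.085 ± 0.096 in HPD, -0.23 ± 0.15 in HFD and -0.11 ± 0.081 in LFD rats (SD, n = 6 each). The HPD vs HFD difference of 0.14 ± 0.091 (SE) is a ratio of 1.1 with a 95% interval of 0.96 to 1.26 (limma, unadjusted p = 0.142, adjusted p = 0.995). It was 0.059 ± 0.11 with slide as a further term (adjusted p = 0.999), and within slides it was -0.070 on slide 2 (3 HPD rats, 1 HFD rat) and 0.066 on slide 3 (1 HPD rat, 2 HFD rats). HPD vs LFD differed by 0.022 ± 0.091, a ratio between 0.89 and 1.16 at 95% confidence. Psat1 (chr1:219286277-219290212, rn4, minus strand) was not well above background on any of the 6 HPD, 6 HFD or 6 LFD arrays, so no difference is given for it.

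Slc7a5 is the light chain of the LAT1 transporter, which carries leucine and other large neutral amino acids, and Slc3a2, also called CD98, is the heavy chain that brings it to the cell surface. Slc7a5 (chr19:52121389-52121448, rn4, minus strand) had lowest, median and highest log2 ratios of -0.52, -0.21 and 0.55 in HPD rats, -0.83, -0.084 and 0.35 in HFD rats and -0.50, 0.15 and 0.49 in LFD rats. The highest rat of all was an HPD rat and the lowest an HFD rat, and the diets overlapped over most of that span. The HFD vs LFD difference of -0.25 ± 0.22 (SE) is a ratio of 0.84 with a 95% interval of 0.61 to 1.17, and HPD vs LFD gave 0.87 with 0.63 to 1.21 (limma adjusted p = 1 in both). Within the slides that held HFD and LFD rats, Slc7a5 differed by -0.68 on slide 1, -0.88 on slide 3 and 0.62 on slide 5. HPD vs LFD, at -0.19 ± 0.22, was -0.64 within slide 3 and 0.44 within slide 4. It was 0 without the 4 arrays of slide 1, -0.32 without HPD replicate 2 and -0.11 without HPD replicate 3.

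Slc3a2 (chr1:211376528-211376587, rn4, minus strand) had lowest, median and highest log2 ratios of -0.42, -0.062 and 0.12 in HPD rats, -0.32, 0.009 and 0.14 in HFD rats and -0.30, -0.16 and 0.64 in LFD rats. The highest LFD values were those of its 2 rats on slide 1, at 0.64 and 0.44, and the other 4 LFD rats lay below 0. HPD vs LFD differed by -0.16 ± 0.17 and HFD vs LFD by -0.058 ± 0.17 (SE, limma adjusted p = 1 in both). Without the 4 arrays of slide 1 the differences were 0.10 and 0.13.

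Slc38a2, also called SNAT2, is a sodium-coupled carrier of small neutral amino acids such as alanine and glutamine, and its transcript is a known target of amino acid starvation. It has 2 probes on the minus strand, a brighter one at chr7:135365535-135365594 and a dimmer one at chr7:135370146-135370205 (rn4). By the brighter probe its log2 ratio ran over -0.065, 0.051 and 0.20 in HPD rats, -0.099, 0.016 and 0.20 in HFD rats and -0.22, -0.11 and 0.090 in LFD rats (lowest, median and highest). All 6 HPD rats and 5 of 6 HFD rats lay above the LFD mean, while the ranges overlapped. The mean was 0.067 ± 0.11 in HPD, 0.039 ± 0.10 in HFD and -0.084 ± 0.12 in LFD rats (SD, n = 6 each). The HPD vs LFD difference of 0.15 ± 0.090 (SE), a ratio of 1.11 with a 95% interval of 0.97 to 1.27, had an unadjusted limma p of 0.111 (adjusted p = 1), the lowest of any member in that comparison. Of all probes, 6.9% had a lower one. It was 0.13 with slide as a further term and 0.082 and 0.19 within slides 3 and 4. The dimmer probe gave -0.10 ± 0.22 for the same comparison and -0.001 ± 0.22 for HFD vs LFD, against 0.12 ± 0.090 by the brighter one. Over the 18 arrays the 2 probes correlated at r = 0.43, so the higher means in HPD and HFD rats were not shared by both probes of the gene. The brighter probe correlated at r = -0.70 with the platelet marker mean and at -0.11 to 0.41 with the other marker means. That platelet mean was -0.50 in HPD, -0.24 in HFD and 0.031 in LFD rats. The part of platelets in the Slc38a2 values was not tested.

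**Figure D2:**
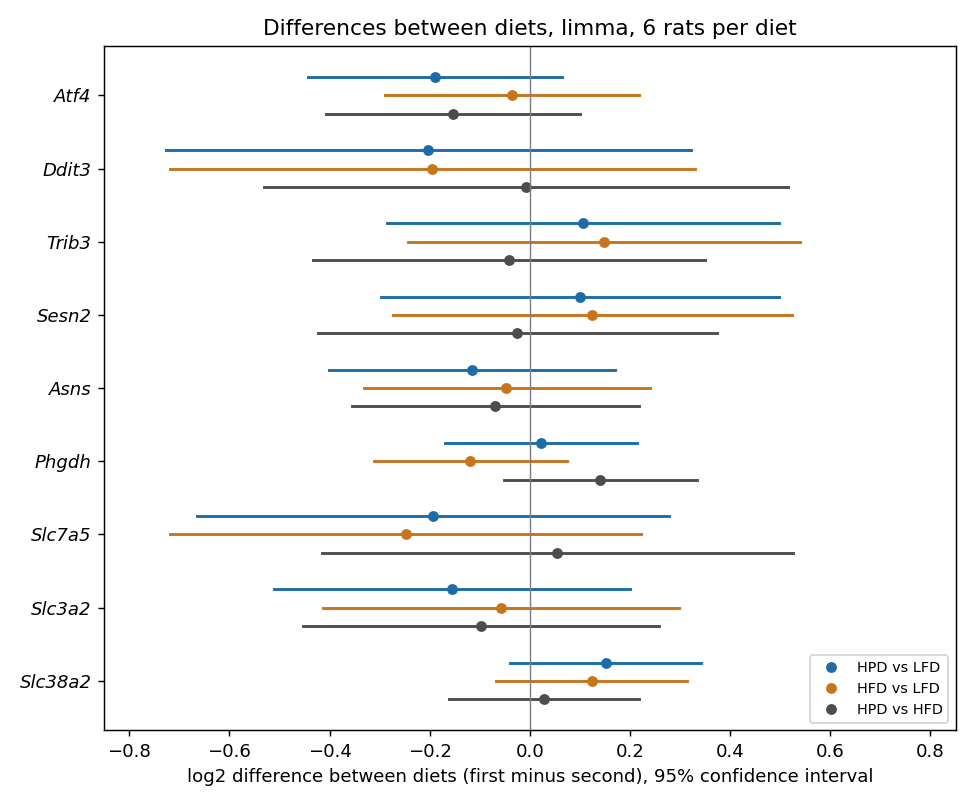
Log2 difference between diets for each measured member (x axis), with its 95% confidence interval from limma over 6 rats per diet, for HPD vs LFD, HFD vs LFD and HPD vs HFD. Every interval includes 0, those of Ddit3 are the widest, -0.73 to 0.32 in HPD vs LFD, and those of Phgdh and Slc38a2 the narrowest.

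Taken over the 9 measured members by the brightest probe, 5 had an HPD vs LFD difference below 0, against 46.1% of all probes, and the median difference was -0.12 against 0.017 over all probes. In HFD vs LFD, 6 members lay below 0, against 48.5% of all probes, with a median of -0.047 against 0.006. In HPD vs HFD, 6 lay below 0, against 47.7%, with a median of -0.025 against 0.011. HPD set against the mean of LFD and HFD gave 5 members below 0, against 46.4%, and a median of -0.070, with 0 members and 0% of all probes passing limma's adjusted test and 3.04% of all probes at an unadjusted p under 0.05 (766 probes). These comparisons share samples and do not count as separate observations. A moderated F test for any difference among the 3 diets passed for 0 members and 0% of probes (2.31% at an unadjusted p under 0.05, 581 probes).

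The members differed in how much their log2 ratios varied between arrays. That spread mixes differences between rats with those of slide and spot, which were not separated. The SD over all 18 arrays was 0.12 for Phgdh and for the brighter Slc38a2 probe, each larger than in only 2.9% of the probes kept. It was 0.20 for Atf4 (larger than in 14.8%) and 0.21 for Asns (18.6%). Slc3a2, Trib3 and Sesn2 stood between 33.6 and 41.3%, and Slc7a5 and Ddit3, with SDs of 0.39 and 0.43, at 55.5 and 62.3%. The median SD over all probes was 0.36. The dimmer Slc38a2 probe had an SD of 0.38 (52.5%) at a median Cy5 signal of 193, against 6021 for the brighter one. Median signals were 38480 for Atf4 and 16450 for Phgdh, but 201 for Sesn2 and 105 for Slc7a5. The part of signal level in the spread was not tested. Of the variance between arrays, diet accounted for 29.3% in the brighter Slc38a2 probe, 25.8% in Phgdh, 18.7% in Atf4 and 3.1 to 7.8% in the other 6 members, against a median of 7.12% over all probes.

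Slide is the glass that carries 4 arrays. With no effect at all, 5 slides would take 23.5% of the variance of 18 arrays on average and 3 diets 11.8%, so the 2 shares are not read against each other. Slide accounted for 65.6% in Slc3a2 and 60.8% in the dimmer Slc38a2 probe, against a median of 35.4% over all probes and 15.6% in the brighter Slc38a2 probe. Slc3a2 averaged 0.33 on the 4 arrays of slide 1 (0.087 to 0.64) and -0.15 on the other 14 (-0.42 to 0.13), and 2 of the 14 reached into the slide 1 range. The dimmer Slc38a2 probe averaged 0.50 on slide 1 (0.086 to 0.73) and -0.11 on the others (-0.61 to 0.33). With diet in the model, limma's moderated F test for slide passed for 0.353% of all probes (89) and for 0 members. The unadjusted p was 0.0139 for Slc3a2 and 0.0178 for the dimmer Slc38a2 probe (adjusted p = 0.134 and 0.146), and 23.2% of all probes had an unadjusted p under 0.05. The mean of the 6 erythroid markers averaged 0.70 on slide 1 (0.43 to 0.84) and -0.66 on the others (-1.57 to 1.08), that of the 5 natural killer cell markers 0.44 (0.043 to 0.78) and -0.18 (-0.65 to 0.38), and that of the 4 B cell markers 0.24 (0.066 to 0.51) and -0.22 (-0.75 to 0.23). That of the 5 monocyte markers averaged 0.17 (-0.42 to 1.02) and -0.35 (-1.52 to 0.78). The T cell mean averaged -0.047 and -0.080, the neutrophil mean -0.18 in both, the platelet mean -0.14 and -0.26 and the plasma cell mean -0.023 and -0.056. None of these was tested. Across the 18 arrays Slc3a2 correlated at r = 0.69 with the B cell, 0.68 with the natural killer cell, 0.54 with the erythroid and 0.39 with the monocyte marker mean. The part of these cells in the Slc3a2 values was not tested. Slide 1 held 2 HFD and 2 LFD rats and no HPD rat, and no slide held all diets in equal number.

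**Figure D3:**
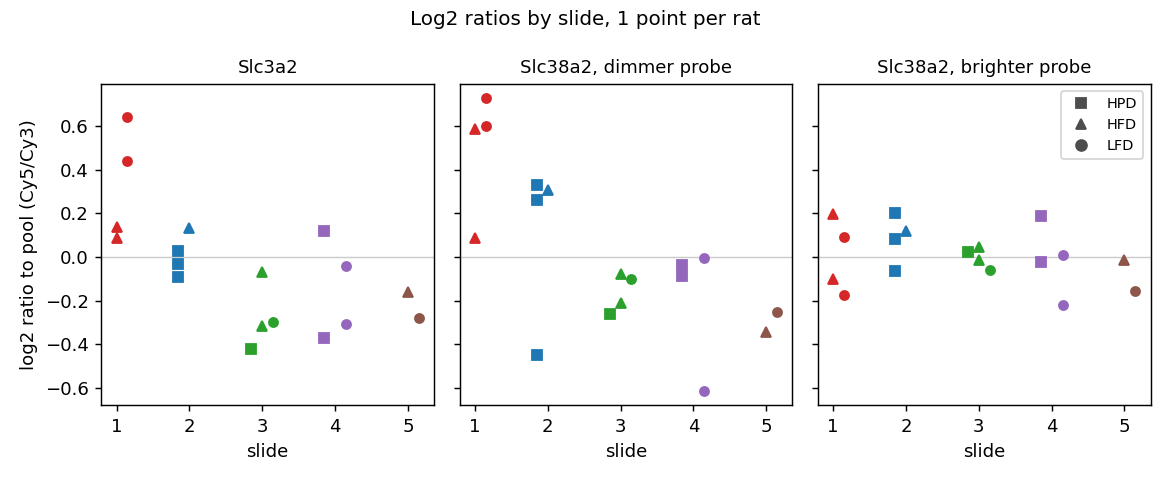
Log2 ratio to the pool (y axis) by slide (x axis) for Slc3a2 and for the dimmer and brighter probes of Slc38a2, 1 point per rat, with symbols for HPD, HFD and LFD. Slc3a2 and the dimmer Slc38a2 probe are higher on slide 1, with means of 0.33 and 0.50, while the brighter Slc38a2 probe averages 0.003 there.

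With slide as a further term in limma, HPD vs LFD differences of the members lay between -0.16 (Atf4) and 0.15 (Trib3), and HFD vs LFD differences between -0.18 (Slc7a5) and 0.28 (Trib3), with adjusted p of at least 0.999. Trib3 in HFD vs LFD had an unadjusted p of 0.109 there. Within single slides, which hold 1 to 3 rats of a diet, HPD vs LFD had opposite signs on slides 3 and 4 for 6 of the 9 members. HPD vs LFD for Ddit3 was -0.74 on slide 3 and 0.40 on slide 4, and for Asns -0.42 and 0.004. Trib3 and Slc38a2 were above 0 on both slides and Atf4 below 0 on both.

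Co-variation across rats was examined for pairs joined by known biology, of which 3 of 4 could be computed because Psat1 was below background. The LAT1 chains Slc7a5 and Slc3a2 correlated over 18 rats at Pearson r = 0.56 (permutation p = 0.0153, adjusted p = 0.0459 over the 3 pairs computed and 0.0612 over the 4 planned). Spearman's rho was 0.50 (permutation p = 0.0356, adjusted p = 0.107). The relation did not hold firmly: r was 0.51 without the 2 rats farthest from the Slc7a5 median, 0.62 within slides and 0.55 within diets, but 0.41 without the 4 arrays of slide 1 (n = 14, permutation p = 0.142, adjusted p = 0.213). Leaving out 1 rat at a time gave r of 0.47 to 0.66, and the adjusted p stayed under 0.05 in 5 of the 18 cases. The lowest r came without LFD replicate 2, the rat with the highest Slc3a2 value.

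**Figure D4:**
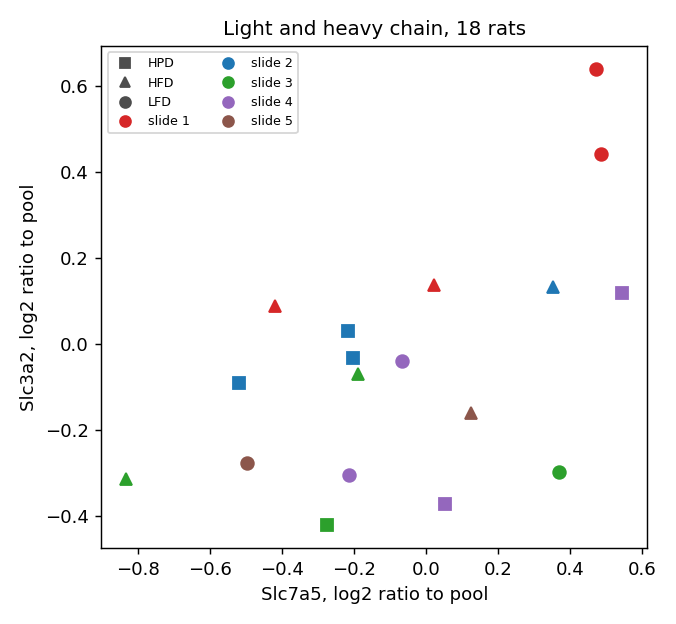
Log2 ratio to the pool of Slc7a5 (x axis) and Slc3a2 (y axis) in 18 rats, with symbols for HPD, HFD and LFD and colours for slides. The points rise together at r = 0.56, and the 2 highest Slc3a2 values, 0.64 and 0.44, are LFD rats of slide 1.

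Ddit3 and Trib3 correlated at r = 0.45 (permutation p = 0.0598, adjusted p = 0.0897) with rho = 0.41 (permutation p = 0.0957, adjusted p = 0.144). Their r was 0.37 without the 2 rats farthest from the Ddit3 median, 0.26 within slides, 0.52 within diets and 0.62 without the 4 arrays of slide 1 (n = 14, permutation p = 0.0182, adjusted p = 0.0546). It was 0.27 to 0.54 on leaving out 1 rat, lowest without HPD replicate 2, the highest of all rats in both genes. Atf4 and its target Asns did not move together measurably, with r = 0.09 (permutation p = 0.717, adjusted p = 0.717) and rho = 0.20 (permutation p = 0.421, adjusted p = 0.421), and r = -0.01 without 2 rats. Among the remaining pairs, singled out after their values were seen and given with no test, Atf4 with Ddit3 had r = 0.77 (0.78 within slides) and Asns with Sesn2 r = 0.58 (0.68 within slides). All such values share the library of each rat and the same pool. Atf4 and Ddit3 also each correlated with the platelet marker mean, at r = 0.57 and 0.63, and with the monocyte marker mean, at 0.64 and 0.37. The part of these cells in the correlation of Atf4 with Ddit3 was not tested.

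Of 10292 named genes, those most like Asns over the 18 arrays were Ccng1 (r = 0.83), Gtf3c2 (0.78) and Traf7 (0.74), with 0.78, 0.67 and 0.68 within slides. Those most like Slc7a5 were Fam184a (0.76), Napa (0.76) and Nrde2 (0.75), with 0.83, 0.82 and 0.74 within slides. None of these is another member. They were chosen as the highest of 10292 values and given with no test, so their high r is owed in part to the choice.

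The wider pathway was described with 6 related lists, by the brightest probe of each gene. None of their genes passed limma's adjusted test in any diet comparison. Of 22 other targets of the response, 15 were measured, and 11 of these were below 0 in HPD vs LFD (46.1% of all probes were) with a median of -0.20, while 6 were below 0 in HFD vs LFD with a median of 0.056. In HPD vs HFD 12 were below 0 (47.7% of all probes were), with a median of -0.21. There 2 of the 15 had an unadjusted limma p under 0.05, both lower in HPD, against 3.02% of all probes. Against the mean of LFD and HFD, 13 were below 0 (46.4% of all probes were), with a median of -0.22. These comparisons share the HPD rats. Nupr1, a stress-induced chromatin-associated protein, ran over -0.96, -0.67 and 0.008 in HPD rats and -0.95, -0.092 and 2.01 in LFD rats (lowest, median and highest). Its HPD vs LFD difference was -0.77 ± 0.36 (SE, limma, unadjusted p = 0.0473, adjusted p = 1), and 1 LFD rat at 2.01 stood well above all others. The difference was -0.41 without that rat and -1.155 without slide 1, which leaves that rat in. Xpot, an exporter of transfer RNA from the nucleus, differed the other way by 0.23 ± 0.12, with 6 of 6 HPD rats above the LFD mean (limma, unadjusted p = 0.0602, adjusted p = 1). It was 0.094 without slide 1. Cebpb, a partner factor of Atf4, had the smallest p of the list in HFD vs LFD, at 0.34 ± 0.26 (limma, unadjusted p = 0.207, adjusted p = 1), and was at 0.098 without slide 1. Its HPD vs HFD difference was -0.56 ± 0.26 (limma, unadjusted p = 0.0476, adjusted p = 0.995). The monocyte marker mean was -0.61 in HPD and 0.12 in HFD rats. Both Cebpb and that mean were lowest in HPD replicate 4 (-1.35 and -1.52) and highest in HFD replicate 1 (0.80 and 1.02). The part of monocytes in the values of Cebpb and of this list was not tested.

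Of 32 other amino acid transporters, 18 were measured, and 13 were below 0 in HPD vs LFD with a median of -0.098, and 12 in HFD vs LFD with a median of -0.037. Slc38a5, a carrier of glutamine and related amino acids that red cell precursors also express, ran over -1.51, -0.81 and 0.65 in HPD rats and -0.60, 0.50 and 1.09 in LFD rats. Its HPD vs LFD difference was -0.88 ± 0.41 (SE, limma, unadjusted p = 0.043, adjusted p = 1), with 1 of 6 HPD rats above the LFD mean. The erythroid marker mean was -0.84 in HPD and -0.096 in LFD rats, and its part in the Slc38a5 value was not tested. Slc7a1, the cationic amino acid transporter for arginine and lysine, had 6 of 6 HPD rats above the LFD mean, at 0.32 ± 0.18 (limma, unadjusted p = 0.0918, adjusted p = 1). Its 2 LFD rats on slide 1 were at -0.40 and -0.85, and the difference was 0.18 without LFD replicate 2 and 0.069 without slide 1. HPD vs HFD for Slc7a1 was 0.42 ± 0.18 (limma, unadjusted p = 0.0325, adjusted p = 0.995), and its 2 HFD rats on slide 1 were at -0.50 and -0.34. In HPD vs HFD, 2 of the 18 transporters had an unadjusted limma p under 0.05, 1 higher and 1 lower in HPD, against 3.02% of all probes. In HFD vs LFD the smallest p was that of Slc38a7, a lysosomal glutamine exporter, at -0.31 ± 0.19 (limma, unadjusted p = 0.127, adjusted p = 1).

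The remaining lists lay closer to 0 in HPD vs LFD. Serine, one-carbon and proline synthesis had 8 of 13 measured genes below 0 (14 listed) with a median of -0.041, cytosolic aminoacyl-tRNA synthetases 11 of 18 (20 listed) with -0.034, amino acid sensing upstream of mTORC1 12 of 21 (27 listed) with -0.006, and the eIF2 kinases, phosphatases and partners 4 of 15 (16 listed) with 0.058. Their HFD vs LFD medians were -0.054, -0.042, 0.005 and 0.056 in the same order of lists. By the fixed rule Mthfd1l, a mitochondrial one-carbon enzyme, differed by 0.12 ± 0.11 and Gpt, alanine aminotransferase, by -0.43 ± 0.41 in HPD vs LFD. The antiviral eIF2 kinase Eif2ak2 differed by 0.23 ± 0.14 and the eIF2B subunit Eif2b5 by 0.17 ± 0.12. The tryptophanyl synthetase Wars1 differed by -0.26 ± 0.15. Tsc2, a brake on mTORC1, differed by -0.29 ± 0.18 and Mios, a subunit of the GATOR2 complex, by 0.15 ± 0.13 (SE; limma adjusted p = 1 for these 7 genes). In HFD vs LFD, Tsc2 differed by -0.37 ± 0.18, with 0 of 6 HFD rats above the LFD mean (limma, unadjusted p = 0.0492, adjusted p = 1). The eIF2B subunit Eif2b4 differed there by -0.20 ± 0.17 and the alanyl synthetase Aars1 by -0.22 ± 0.13 (SE, limma adjusted p = 1 in both).

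**Figure D5:**
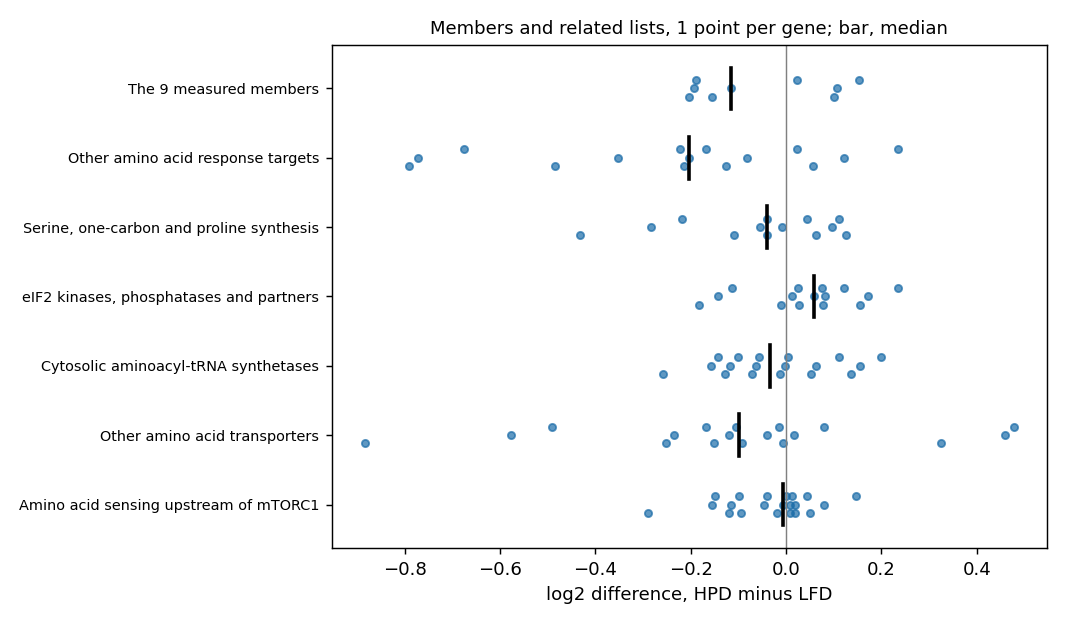
HPD vs LFD log2 difference (x axis) of each gene in the 9 measured members and the 6 related lists, 1 point per gene, with the median as a bar. The medians run from -0.20 for the other amino acid response targets to 0.058 for the eIF2 kinases, phosphatases and partners, and no single gene passes the adjusted test.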

How the data were processed

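Blood mononuclear cell RNA of 18 rats was measured on 2-colour 4x44K arrays, 6 per diet. Per the file headers, the deposited scanner files hold processed signals, which are intensity values after background subtraction and dye normalization. The software was Agilent Feature Extraction, version 10.5.1.1 in the submitters' processing notes. A deposited log2 table, of unknown centring (each column had a median of 8.4), served only as an alternative. Its array-to-array deviations correlated at 0.885 with those used here. Per the file headers, outlier, saturation and well-above-background flags are other values of 0 or 1 per spot.

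The log2 ratio of processed Cy5 over Cy3 was taken per spot. Spots flagged as outliers were dropped, so some probes lack a value on an array (Eif2b5 on 1 LFD array), and spots of a probe were averaged. Probes stayed in if Cy5 was well above background on 5 or more of the 18 arrays, which left 25205 of 41012. Group means were fitted with limma 3.58.1 (R 4.3.3) and p-values adjusted by Benjamini-Hochberg over all probes kept. Correlations used 100000 permutations, and fewer where 1 array at a time was left out. Dyes are stated in the labels, so the direction was kept although 1 pair of arrays correlated at -0.5. Names follow RefSeq (GRCr8) for 19696 probes. Probe positions come from the array design (rn4), and exons or introns under them were not analysed here. Probe sequences were not used here.

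The named genes are every member, the 2 genes per list with the smallest p in HPD vs LFD and 1 in HFD vs LFD, and the 3 genes most like Asns and Slc7a5; some that the rule names are not reported here. Members and lists were chosen with earlier results of these data known. Each sample counts as 1 animal. The arrays most alike were HFD replicates 1 and 6, at r = 0.61 against 0.52 for the next pair. Averaging these arrays was among the alternatives, and the cause of their likeness was not tested. Alternatives covered background, normalization, filter, weights, slide, replicate block and left-out arrays. Statistics were tested on simulated data. The number of arrays limits the precision.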

Additional observations from a re-analysis of the deposited data

Results flagged for a closer look

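Chance alone sets apart about 1 in 20 groups by the criterion used here, a gap to the next rat that is large against the range of the 6 rats of a diet, and 2 of the 30 groups of members were set apart. Trib3 in HPD replicate 2 was 0.66, with the nearest other HPD rat at 0.07 and the furthest at -0.26, a gap of 0.64 of the range. That rat also had the highest Ddit3 value, 0.77, and the highest Slc7a5 value, 0.55. Sesn2 in LFD replicate 6 was -1.28, with the nearest LFD rat at -0.07 and the furthest at 0.03, a gap of 0.92 of the range. That array had the widest spread of log2 ratios of all 18, with a median absolute deviation of 0.618.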

How the results depend on the processing

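Over 18 other settings and 18 cases of leaving out 1 array, the 36 member differences gave 1255 values, of which 0 passed limma's adjusted test (lowest adjusted p = 0.56). Their direction was not stable: 84 of the 1255 values, in 26 of the 36 differences, changed sign. The number of probes called in HPD vs LFD was 2 with array weights and 0 to 1 on leaving out 1 array (1 without LFD replicate 2), against 0 in the fit reported. Calls for slide numbered 888 when the normexp background was fitted without marked spots and 89 here; the cause was not tested. The Slc7a5 and Slc3a2 correlation was 0.41 without slide 1, which leaves 14 arrays, and 0.47 to 0.66 on leaving out 1 array, that of Ddit3 and Trib3 0.27 to 0.54 (adjusted p = 0.041 without HFD replicate 2); leaving out arrays for the pairs, and arrays or slide 1 for the named list genes, was chosen after seeing the data. With the replicate number as a block, 0 probes were called in each diet comparison. Over 16 same-numbered pairs the deviations correlated at -0.32 to 0.23, 6 of them above 0.1. Over 92 differently numbered pairs they correlated at -0.35 to 0.42, 27 of them above 0.1. Of 18 arrays, 4 were most like an array of their own number. Such correlations cannot settle whether the numbers pair the rats. A normexp background fitted to all spots was not made the main setting because marked spots drew its mean to -630.46 on LFD replicate 6.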
